A study of Mus musculus with 6 samples.

Results

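The circadian clock genes examined here are Per1, Per2, Per3, Ciart, Nr1d1, Nr1d2, Dbp, Tef, Arntl and Clock, chosen by symbol in the GENCODE M21 annotation. All 10 were found among the 55450 genes of the deposited tables, and all 10 were among the 21237 genes that passed the filter on low counts. Long RNA from whole mouse brain had been sequenced in 3 wild-type (WT) libraries and 3 libraries labelled as knockout (KO) for TRMT1L, a protein of the tRNA methyltransferase family, to compare brain transcripts between the genotypes. The RNA was total RNA selected for length, so small RNAs were left out. The labels used here state the tissue and the genotype only; strain, sex, age, knockout allele, light schedule and hour of collection are not given in the sources used here. Nothing there says whether the libraries came from separate animals, so p-values measure the spread between these libraries, which may be technical. Libraries are named by genotype and by the replicate number in their labels.

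The circadian clock is a transcriptional feedback loop that runs in most cells of the body. The proteins of Arntl (also called BMAL1) and Clock bind DNA as a dimer and activate Per1, Per2, Per3, Ciart, Nr1d1, Nr1d2, Dbp and Tef through E-boxes. The PER proteins, with the cryptochromes, inhibit that dimer, and the nuclear receptors encoded by Nr1d1 and Nr1d2 (REV-ERB alpha and beta) repress Arntl through ROR elements. Transcripts of the activated genes and of Arntl therefore peak at opposite times of day, so RNA collected at different clock times differs in opposite directions for the 2 arms. The rhythm of Clock itself is weak in most tissues.

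Promoter windows from RefSeq (GRCm38.p6, 250 bases before to 50 after a start site) matched 9 of the 10 genes, all but Per2, in 14 windows. Stretches are shown for Ciart, Per3 and Arntl, whose windows hold the elements of 3 branches of the loop. In Ciart the capitals mark the E-box CACGTG, and the stretch lies on the minus strand at chr3:95882229-95882378.
Ciart: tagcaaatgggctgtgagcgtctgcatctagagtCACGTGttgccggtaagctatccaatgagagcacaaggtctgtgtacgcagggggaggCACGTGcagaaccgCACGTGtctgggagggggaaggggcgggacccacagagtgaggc
In Per3 the capitals mark matches to TTANGTAA, the D-box that the proteins of Dbp and Tef bind, on the minus strand at chr4:151044746-151044895.
Per3: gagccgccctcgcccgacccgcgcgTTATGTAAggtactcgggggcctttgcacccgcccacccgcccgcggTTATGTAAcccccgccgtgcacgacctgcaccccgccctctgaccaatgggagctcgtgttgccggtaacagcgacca
In Arntl the capitals mark matches to a ROR element (AA, any base, TAGGT, any base, A) on the plus strand at chr7:113207492-113207521 for the first and chr7:113207528-113207557 for the second.
Arntl, first: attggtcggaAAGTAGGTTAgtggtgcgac
Arntl, second: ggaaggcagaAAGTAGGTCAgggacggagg

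Both strands were searched, and the motifs do not overlap in these stretches. The E-box was found in 4 of the 14 windows, those of Ciart, Per1 and Tef (2 windows), and in 7.15% of all 32851 windows. The related sequence CACGTT was found in 1 of the 14 windows, that of Nr1d1, against 4.68% of all windows. The D-box was found in 1 of the 14, that of Per3, against 2.32%, and the ROR element in 2 of the 14, against 0.682%. Those 2 are overlapping windows of Arntl. The letters of the ROR element were chosen with the Arntl window in view, so its matches there were fixed in advance. These matches describe the letters of the windows only.

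The targeted gene was checked first. Trmt1l had 35.1, 33.0 and 35.2 CPM (read counts scaled to library size by the TMM method) in the WT libraries numbered 1, 2 and 3, and 2.68, 3.0004 and 2.93 CPM in the KO libraries in the same order, on the side each label implies. Counts in genes ranged from 31201119 to 36145961 per library. The clock genes had between 236 counts (Ciart in WT library 3) and 10813 counts (Tef in KO library 2). Marker genes of neurons summed to between 3061 and 3350 CPM, those of astrocytes to between 865 and 1032 CPM and those of oligodendrocytes to between 3156 and 4126 CPM, as labelled brain tissue would hold. Summed markers of the suprachiasmatic nucleus, the brain's master clock, ranged from 51.8 to 56.4 CPM in WT and from 55.1 to 64.9 CPM in KO, with 0 of the 9 genes at 0 in every library. Most of this sum came from Syt10, Lhx1, Vip and Vipr2. Nms (0 to 2 counts per library) and Six6 (1 to 10 counts) were too low to be tested, and Prok2 had 7 to 16 counts. The sum is therefore not a measure of how much of that nucleus each library held. Pineal markers summed to between 2.25 and 3.34 CPM. Fewer cells of a type and less RNA per cell cannot be told apart in such bulk tissue.

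Levels were compared between genes per kilobase of annotated exon, as CPM per kb averaged over the 6 libraries. Nr1d1 was highest at 42.3 CPM per kb, followed by Tef at 37.1, Nr1d2 at 30.3, Dbp at 22.3, Per1 at 18.1, Clock at 12.8, Per3 at 9.60, Per2 at 8.66, Arntl at 6.51 and Ciart at 6.50. Neighbours in this order overlapped in their range over libraries, except that every library had more Clock (12.2 to 13.8 CPM per kb) than Per3 (7.77 to 11.0). Exon length was taken over all annotated transcripts of a gene, which lowers the level of genes with rarely used exons.

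The main pattern in the clock genes ran across libraries and not across genotypes. In both genotypes the library numbered 3 had the lowest level of all 8 activated genes, and more Arntl than either other library. Of the 12724 genes with a mean of at least 5 CPM, 9.5% were lowest in library 3 in both genotypes, and 8.13% were highest there in both. All 8 genes were also lower in both libraries numbered 3 than in any of the other 4 libraries, as were 4.89% of those genes. The libraries were singled out after these values were seen, so these shares are descriptions.

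**Figure D1:**
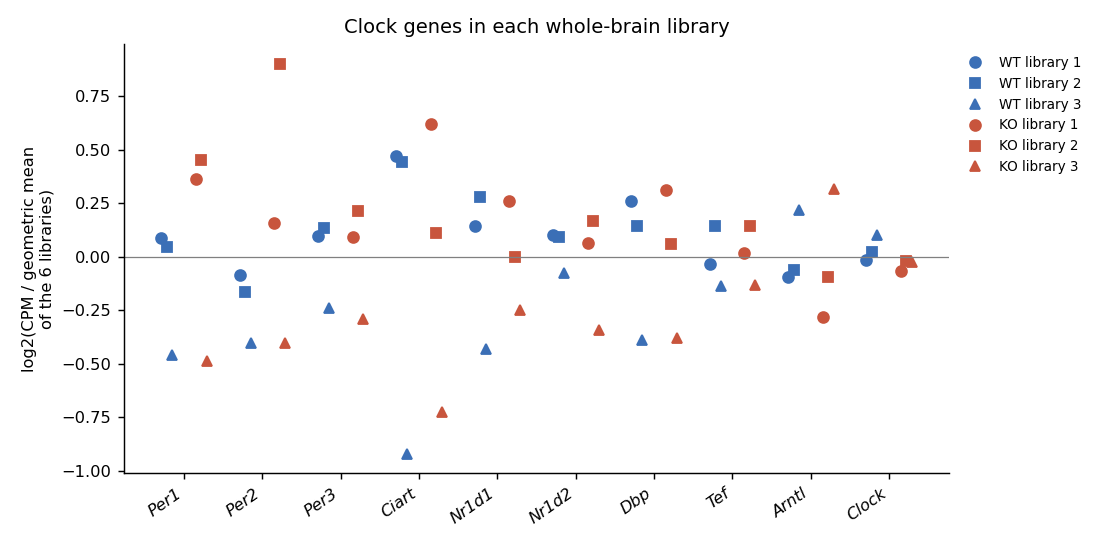
Level of each clock gene in each library, as log2 of CPM over the geometric mean of the 6 libraries. Blue points are WT, red points KO, and the shape gives the library number. Triangles (library 3 of each genotype) lie lowest for the 8 genes from Per1 to Tef and highest for Arntl, while the Clock points lie close together and KO library 2 stands highest for Per2.

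The repressor genes were examined one by one. Ciart, whose product CHRONO inhibits the BMAL1 dimer, lies on chromosome 3 from 95878503 to 95882251 (minus strand, GRCm38). It had 18.8, 18.5 and 7.17 CPM in WT (libraries 1, 2 and 3, the order used throughout) and 20.8, 14.7 and 8.22 CPM in KO. Library 3 was low in both genotypes, and the genotypes overlapped. The highest library exceeded the lowest by 2.63-fold within WT and by 2.54-fold within KO.

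Per1, on chromosome 11 from 69095217 to 69109960 (plus strand), encodes a core repressor that is also induced by cAMP signalling and glucocorticoids. Its level was 105, 102 and 71.7 CPM in the WT libraries and 127, 135 and 70.4 CPM in the KO libraries. Per2, on chromosome 1 from 91415982 to 91459324 (minus strand), had 45.2, 42.8 and 36.3 CPM in WT and 53.7, 89.8 and 36.4 CPM in KO. KO libraries 1 and 2 were above all WT libraries for both genes, while KO library 3 was close to WT library 3. Per3, on chromosome 4 from 151003652 to 151044665 (minus strand), had 97.8, 100 and 77.4 CPM in WT and 97.4, 106 and 74.7 CPM in KO. Only the libraries numbered 3 were low for Per3. Per3 lies inside Camta1 on the same strand without sharing an exon, so its counts can include intronic Camta1 reads.

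The genes of the REV-ERB loop were also lowest in library 3. Nr1d1, on chromosome 11 from 98767932 to 98775333 (minus strand), had 141, 155 and 94.99 CPM in WT and 153, 128 and 108 CPM in KO. Nr1d2, on chromosome 14 from 18204054 to 18239127 (minus strand), had 174, 173 and 154 CPM in WT and 170, 182 and 128 CPM in KO. Library 3 was lowest for both genes, by 1.63-fold at most for Nr1d1 within WT and by 1.42-fold at most for Nr1d2 within KO. Nr1d1 overlaps exons of Thra on the opposite strand over 263 bp, and the counts used here are those of its own strand.

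The output factors were next. Dbp and Tef encode related transcription factors that carry the rhythm to other genes through D-boxes. Dbp, on chromosome 7 from 45705088 to 45710203 (plus strand), had 78.4, 72.3 and 50.02 CPM in WT and 81.2, 68.1 and 50.3 CPM in KO. Tef, on chromosome 15 from 81802421 to 81826863 (plus strand), had 284, 322 and 265 CPM in WT and 294, 321 and 265 CPM in KO. For each of them the libraries numbered 3 were close to each other and lay below the other 4.

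The activator genes differed from each other. Arntl, on chromosome 7 from 113207465 to 113314126 (plus strand), had 45.4, 46.3 and 56.3 CPM in WT and 39.9, 45.4 and 60.3 CPM in KO, so both libraries numbered 3 were above the other 4. Clock, on chromosome 5 from 76209868 to 76304792 (minus strand), had 174, 179 and 189 CPM in WT and 168, 174 and 173 CPM in KO. The highest Clock value exceeded the lowest by 1.08-fold within WT and 1.03-fold within KO, the narrowest ranges of the 10 genes.

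Averaged over both genotypes, library 3 differed from the mean of libraries 1 and 2 by -1.23 on the log2 scale for Ciart, the third lowest of the 12724 genes. The same difference was -0.71 for Per1 (rank 15 from the bottom), -0.60 for Per2 (rank 21), -0.58 for Dbp (rank 23), -0.51 for Nr1d1 (rank 32), -0.40 for Per3 (rank 47), -0.31 for Nr1d2 (rank 80) and -0.20 for Tef (rank 257). For Arntl it was 0.40, rank 38 from the top, and for Clock 0.059. Within each genotype, the 5th to 95th percentiles of the same difference over the 12724 genes were -0.21 to 0.19 in WT and -0.22 to 0.24 in KO. Tef (-0.19 in WT and -0.21 in KO) and Clock (0.099 and 0.018) lay inside that range in both genotypes, and Nr1d2 lay inside it in WT (-0.17) but not in KO (-0.45). The other 7 genes lay outside it in both.

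Libraries of a genotype spread more for the clock genes than for most genes. The within-genotype SD of log2 CPM had a median of 0.284 over the 10 genes, against 0.0790 over the 12724 genes. It was above the 90th percentile of those genes for 8 of the 10, with Ciart at the 99.9th percentile (SD 0.736). Tef lay at the 84.4th percentile (SD 0.140) and Clock at the 17.0th (SD 0.0461).

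Arntl was then set against 4 partners of the opposite arm in each library, Dbp, Nr1d1, Per3 and Ciart. Per1, Per2, Nr1d2 and Tef were not paired with Arntl, so the pairs do not describe the whole arm. The log2 difference of Dbp minus Arntl, centred on the 6 libraries, was 0.35, 0.21 and -0.60 in WT and 0.59, 0.15 and -0.70 in KO. For Nr1d1 it was 0.24, 0.34 and -0.65 in WT and 0.54, 0.090 and -0.56 in KO. For Per3 it was 0.19, 0.20 and -0.46 in WT and 0.37, 0.30 and -0.61 in KO. For Ciart it was 0.56, 0.51 and -1.13 in WT and 0.90, 0.20 and -1.04 in KO. For all 4 partners the libraries numbered 3 were negative and the other 4 positive.

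By genotype, these differences averaged -0.015 ± 0.516 in WT and 0.015 ± 0.653 in KO for Dbp, and -0.021 ± 0.963 in WT and 0.021 ± 0.979 in KO for Ciart (SD, n = 3 each). The genotype means were thus apart by far less than the spread between libraries. The pairs set library 3 apart within each genotype, and did not set one genotype apart from the other. No hour of collection was available to set beside it, so the part of collection time in this separation was not tested.

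**Figure D2:**
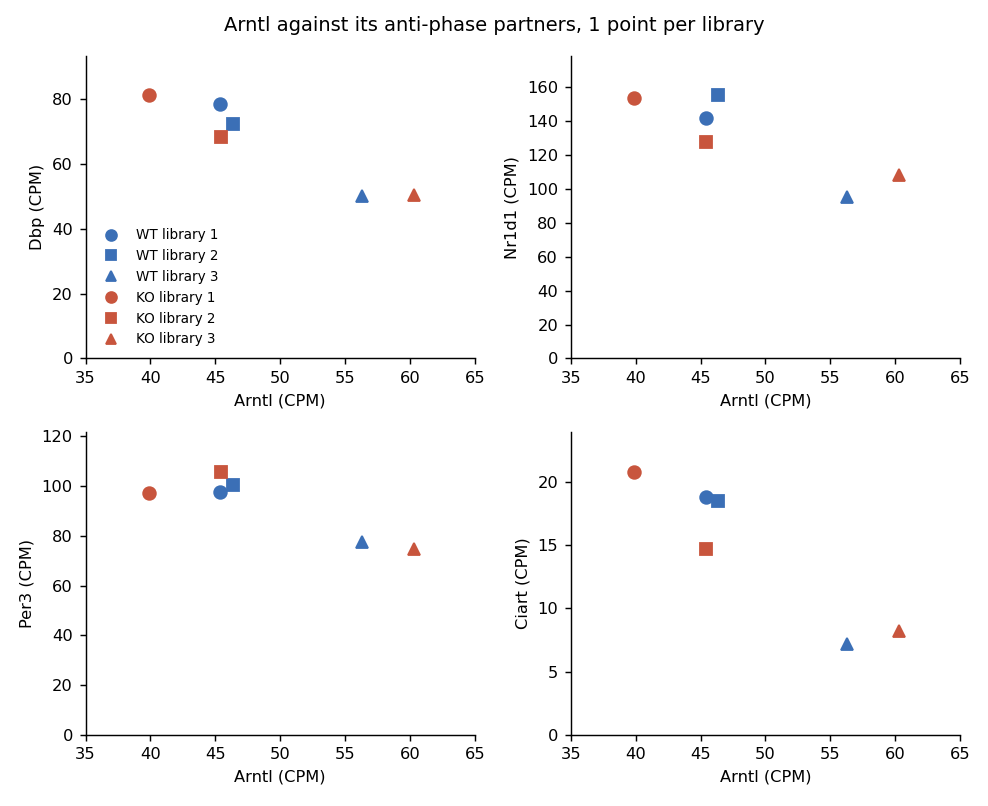
Arntl (horizontal axis, CPM, starting at 35) against Dbp, Nr1d1, Per3 and Ciart (vertical axes, CPM, starting at 0), with 1 point per library, WT in blue and KO in red. The triangles of both genotypes (library 3) lie at 56.3 and 60.3 CPM of Arntl and at the lowest level of each partner, apart from the other 4 libraries.

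Arntl and Dbp lay on opposite sides of their own 6-library means in all 6 libraries, as did Arntl with Per3 and with Ciart, and Arntl with Nr1d1 in 5. Over the 6 libraries Pearson's r of Arntl was -0.96 with Dbp and -0.93 with Ciart, with exact permutation p = 0.0194 and p = 0.0306 (two-sided, n = 6). After Benjamini-Hochberg adjustment over the 4 pairs, both were p = 0.0611 in the permutation test. With Nr1d1 and Per3, r was -0.86 and -0.88, with exact permutation p = 0.0694 and p = 0.0889, both 0.0889 after adjustment. Spearman's rho was -0.89 with Dbp and with Ciart (exact permutation p = 0.0333 each, 0.0667 adjusted), -0.60 with Nr1d1 (p = 0.242, 0.322 adjusted) and -0.49 with Per3 (p = 0.356 before and after adjustment). Without the libraries numbered 3, the farthest from the median of Arntl, r over the other 4 was -0.69 with Dbp, -0.59 with Ciart, -0.36 with Nr1d1 and 0.47 with Per3. The relations thus rest on these libraries, 1 of each genotype, and the relation within the other 4, fewer than the 6 required here, was not tested. All 4 pairs share Arntl and the scaling of each library.

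Genotype was compared in a fit over all genes. In the quasi-likelihood test of edgeR, 0 of the 10 clock genes passed the threshold of 0.05 on the adjusted p-value, against 0.00942% of all genes tested. Limma-voom also called 0, and DESeq2 called 0 of the 9 to which it gave an adjusted p-value. Without adjustment 1 gene, Per2, had a p-value under 0.05, against 7.92% of all genes. That is 1 of 10 higher in KO, against 4.54% of all genes, and 0 of 10 lower, against 3.38%. Levels were higher in KO for 4 genes and lower for 6, with a median log2 fold change of -0.0089, against 0.00013 over all genes tested. The groups did not overlap for 1 gene, Clock, against 14.4% of all genes. Clock was the lower in KO, against 6.97% of all genes, and 0 of 10 had KO wholly above WT, against 7.46%.

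The genotype differences were small beside their intervals for most of the loop. Dbp averaged 66.9 ± 14.9 CPM (SD, n = 3) in WT and 66.5 ± 15.5 CPM in KO, a log2 fold change of -0.0088 with a 95% interval from -0.38 to 0.36. Nr1d1 averaged 131 ± 31.5 CPM in WT and 129.7 ± 22.8 CPM in KO, with an interval from -0.35 to 0.33. Arntl averaged 49.4 ± 6.04 CPM in WT and 48.5 ± 10.6 CPM in KO, with an interval from -0.31 to 0.26. Ciart averaged 14.8 ± 6.63 CPM in WT and 14.6 ± 6.31 CPM in KO, and its interval, from -0.77 to 0.71, was the widest. Per3 (-0.25 to 0.28), Nr1d2 (-0.29 to 0.16) and Tef (-0.15 to 0.18) had intervals on the same log2 scale that also held 0. Differences of any size within these intervals remain compatible with the values in this fit, which had genotype as sole factor. With 3 libraries per genotype, leaving out single libraries moved these estimates to either side of 0. With all libraries the log2 fold change was -0.0088 for Dbp, -0.028 for Ciart and -0.023 for Arntl. Without KO library 3 the log2 fold change was 0.16 for Dbp, 0.26 for Ciart and -0.21 for Arntl, and without WT library 1 it was 0.12 for Dbp, 0.19 for Ciart and -0.080 for Arntl. Without WT library 3 it was -0.18 for Dbp, -0.36 for Ciart and 0.083 for Arntl, and without KO library 1 it was -0.18 for Dbp, -0.38 for Ciart and 0.099 for Arntl, so library 3 was not alone in this.

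Clock averaged 181 ± 7.54 CPM (SD, n = 3) in WT and 171 ± 3.16 CPM in KO. The log2 fold change was -0.075 (SE 0.0450), the interval ran from -0.17 to 0.024, and the adjusted p in edgeR was 0.708.

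**Figure D3:**
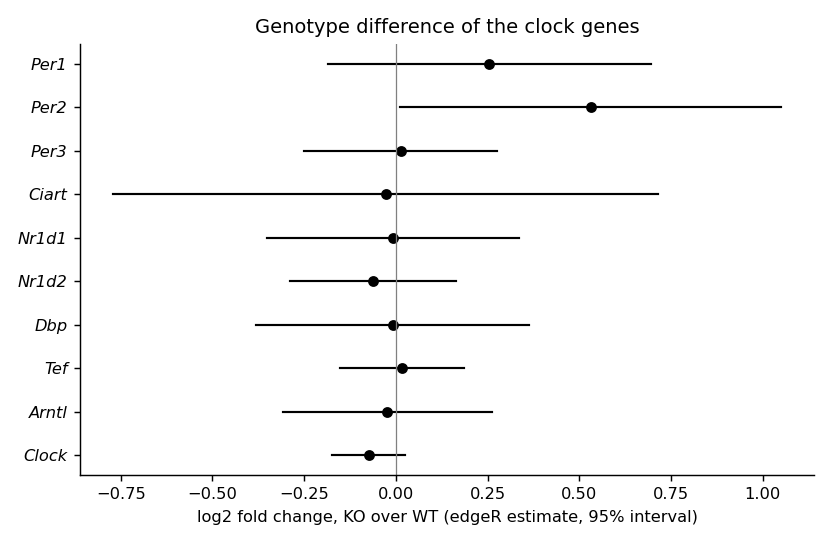
Log2 fold change of each clock gene, KO over WT, as estimated by edgeR (points) with its 95% interval (lines), on a linear axis of log2 units. The intervals hold 0 for 9 genes, and that of Per2 runs from 0.011 to 1.05 before any adjustment for the number of genes tested.

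Per1 and Per2 had the largest estimates. The mean of Per2 was 41.5 ± 4.61 CPM over the WT libraries and 59.97 ± 27.3 CPM over the KO libraries (SD, n = 3 each). Its log2 fold change was 0.53 (SE 0.237, adjusted p = 0.622 by edgeR). Its KO mean rests on KO library 2, without which the log2 fold change was 0.12 (SE 0.136, adjusted p = 0.872). For Per1 the means were 92.7 ± 18.2 CPM and 111 ± 35.1 CPM, and the log2 fold change was 0.25 (SE 0.201, adjusted p = 0.783 by edgeR). The change of Per1 was 0.088 without KO library 2, 0.14 without KO library 1, 0.10 without WT library 3 and 0.50 without KO library 3. That of Per2 was 0.79 without KO library 3 (adjusted p = 0.321 by edgeR). With no filter on low counts, edgeR gave both genes adjusted p-values past the threshold (0.000916 for Per1 and 3.81e-14 for Per2) at nearly the same fold changes, with an SE of 0.0553 for Per1 and 0.0630 for Per2.

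In a fit without both libraries numbered 3, tried once their values were known, 0 of the 10 genes passed, and the errors of the rhythmic genes were smaller. Those libraries were chosen for their distance from the others in these same genes, so the smaller errors follow from that choice. The standard error of the log2 fold change was then 0.139 for Ciart, against 0.339 with all libraries, and 0.0864 for Dbp, against 0.170. In that fit Per1 had a log2 fold change of 0.34 (SE 0.0606, adjusted p = 0.249 in edgeR's test) and Per2 of 0.70 (SE 0.180, adjusted p = 0.540).

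Per1 and Per2 are also glucocorticoid targets, and KO library 2 stood out in genes of that response. Per3 (106 CPM) and Nr1d2 (182 CPM) were also highest in KO library 2, and Per1 was nearly as high in KO library 1 (127 CPM, against 135). All 8 glucocorticoid-responsive genes on the list used here were highest in KO library 2, and 0 of the 8 passed after adjustment over all genes. Their summed level was 493 CPM there, 178 to 202 CPM in the WT libraries, and 237 and 182 CPM in KO libraries 1 and 3. Without adjustment 5 of the 8 had a p-value under 0.05, all higher in KO, against 4.54% of all genes, and the median log2 fold change was 0.65. The 3 with the smallest p-values were Cdkn1a, a cell cycle inhibitor (log2 fold change 0.99, SE 0.207, adjusted p = 0.550 in edgeR's test), Plin4, a lipid droplet protein (2.38, SE 0.721, adjusted p = 0.576), and Sgk1, a hormone-induced kinase (0.67, SE 0.274, adjusted p = 0.614). Plin4 had 36.4 CPM in KO library 2 and between 2.40 and 5.12 CPM in the other 5. KO lay wholly above WT for 2 of the 8, Cdkn1a and Plin4, against 7.46% of all genes. For Sgk1, Zbtb16 and Sult1a1, KO library 3 lay within or below the WT range, as at 46.6 CPM for Sgk1 against 47.0 to 55.4 CPM in WT. The list was chosen with earlier results of these data known, and the share of all genes highest in KO library 2 was not counted. The part of the glucocorticoid response in the Per1 and Per2 values was not tested.

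**Figure D4:**
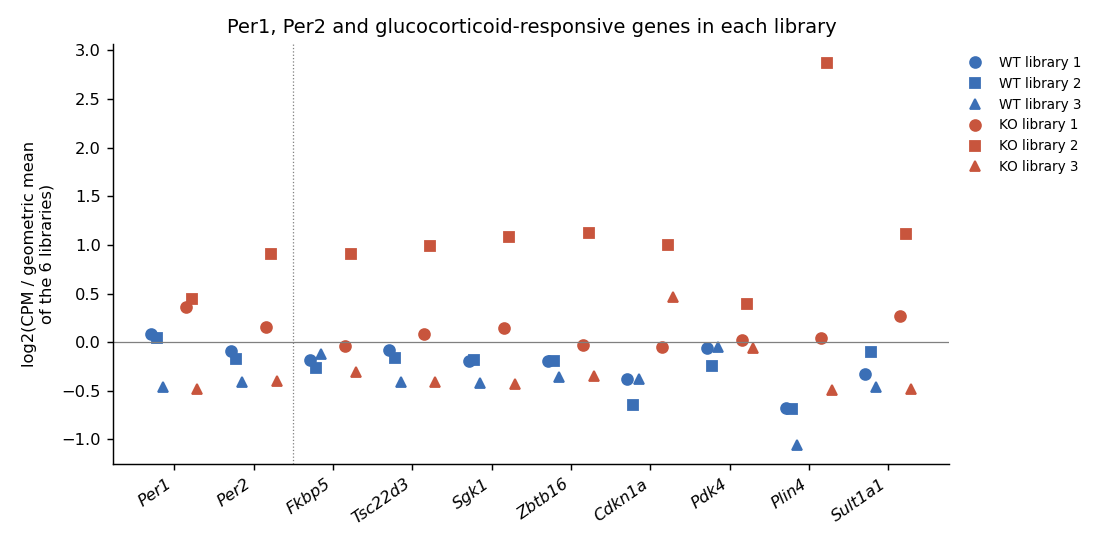
Per1 and Per2 (left of the dotted line) and 8 glucocorticoid-responsive genes in each library, as log2 of CPM over the geometric mean of the 6 libraries. Blue points are WT, red points KO, and the shape gives the library number; the red square, KO library 2, is the highest point for every gene shown.

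Immediate early genes, which share cAMP-dependent induction with Per1, were set beside the same libraries. Their summed level over 10 genes was 363, 348 and 302 CPM in WT and 477, 419 and 220 CPM in KO. Library 3 was lowest in both genotypes for 7 of the 10, against 9.5% of the genes with a mean of at least 5 CPM. Among the 7 was Arc, a synaptic protein, at 77.7, 71.8 and 67.0 CPM in WT and 96.9, 105 and 36.2 CPM in KO. Of the list, 0 passed after adjustment and 1 of 10 had an unadjusted p-value under 0.05, against 7.92% of all genes. It was Fosb (log2 fold change 0.82, SE 0.262, adjusted p = 0.576 in edgeR's test). Egr1 (0.25, SE 0.161) and Sik1 (0.20, SE 0.146) followed, with a median of 0.13 over the list. The 4 endothelial markers were highest in library 3 of both genotypes, against 8.13% of the genes with a mean of at least 5 CPM. Their sum was 171, 175 and 186 CPM in WT and 168, 165 and 194 CPM in KO. Of the 8 glucocorticoid-responsive genes, 5 were lowest in library 3 of both genotypes, against the same 9.5%. The part of these lists in the clock values was not tested.

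A further 17 clock genes were described in the same way, and all 17 were tested. After adjustment over all genes 0 passed in edgeR's test, and without adjustment 1 was higher in KO, against 4.54% of all genes, and 2 were lower, against 3.38%. Rorb, an orphan nuclear receptor of the ROR family, had 96.2, 101 and 103 CPM in WT and 86.7, 85.6 and 89.6 CPM in KO (log2 fold change -0.20, SE 0.0475, adjusted p = 0.576). WT and KO libraries were fully separate for 5 of these 17 genes, Rorb, Rora, Csnk1e, Csnk1d and Cry1, against 14.4% of all genes. Rora, of the same family, which activates Arntl, had a log2 fold change of -0.11 (SE 0.0457, adjusted p = 0.606), and the kinase gene Csnk1e had 0.11 (SE 0.0498, adjusted p = 0.622), both in edgeR's test. The median log2 fold change of the 17 was 0.044.

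Among these 17 genes, library 3 was lowest in both genotypes for 4, Cry2, Bhlhe40, Bhlhe41 and Csnk1d, and highest in both for 1, Rorb. Of the genes with a mean of at least 5 CPM, 9.5% were lowest and 8.13% highest there in both. Bhlhe40 and Bhlhe41 encode the repressors DEC1 and DEC2, which are themselves driven through E-boxes. Bhlhe40 had 82.8, 89.3 and 69.7 CPM in WT and 101, 91.4 and 71.6 CPM in KO. Bhlhe41 had 57.3, 50.2 and 43.6 CPM in WT and 57.5, 52.8 and 42.6 CPM in KO. For both, the libraries numbered 3 lay below the other 4, as for the activated genes above. Npas2, which can stand in for Clock in brain, had 40.7, 44.5 and 44.4 CPM in WT and 42.4, 45.2 and 51.5 CPM in KO, so KO library 3 alone stood above the rest. Cry1, a cryptochrome, had 18.3, 16.0 and 18.3 CPM in WT and 18.5, 20.7 and 19.9 CPM in KO, without the order of the activated genes.

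**Figure D5:**
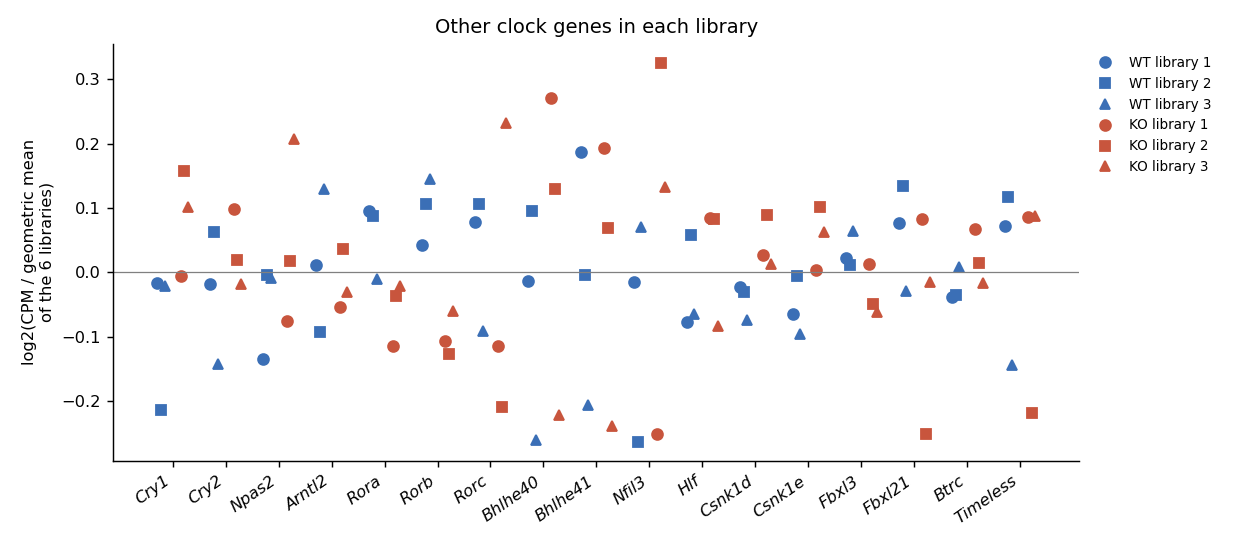
Level of 17 further clock genes in each library, as log2 of CPM over the geometric mean of the 6 libraries, with WT in blue, KO in red and the shape giving the library number. Bhlhe40 and Bhlhe41 show the triangles (library 3) lowest in both genotypes, and the Rorb points of the genotypes do not overlap.

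Of 9 genes known as clock outputs or daily rhythmic transcripts, 0 passed after adjustment over all genes and 1 had an unadjusted p-value under 0.05 in edgeR's test, against 7.92% of all genes. The median log2 fold change of the 9 was 0.090. The 3 with the smallest p-values were Noct, a nicotinamide dinucleotide phosphatase (0.18, SE 0.0765, adjusted p = 0.616), Nampt, the rate-limiting enzyme of NAD salvage (-0.11, SE 0.0502, adjusted p = 0.628), and Tsc22d3, a glucocorticoid-induced gene (0.55, SE 0.258, adjusted p = 0.628). Library 3 was lowest in both genotypes for 3 of the 9, Wee1, Usp2 and Tsc22d3, and highest in both for 1. Of the genes with a mean of at least 5 CPM, 9.5% were lowest and 8.13% highest there in both. The ubiquitin protease gene Usp2, a target of the clock, had 66.7, 67.7 and 52.3 CPM in WT and 69.4, 68.4 and 61.0 CPM in KO. Fabp7, a fatty acid binding protein of astrocytes with a daily rhythm, was the single gene of the 9 that was highest in library 3 of both genotypes, at 23.9, 18.5 and 27.1 CPM in WT and 22.5, 24.4 and 31.7 CPM in KO.

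Patterns like that of Dbp were sought among the 17301 tested genes with a mean of at least 1 CPM, by Pearson's r of log2 CPM over the 6 libraries. Ciart had r = 0.99 and Nr1d1 r = 0.94, and Arntl had r = -0.96. The values for the other clock genes were 0.88 for Per3, 0.86 for Per1, 0.79 for Nr1d2, 0.65 for Tef, 0.48 for Per2 and -0.59 for Clock. Outside the 10 genes the highest r belonged to Gm48511, Gm13357, Gm43571, Gm48129 and Asxl1, from 0.98 to 0.99. The lowest belonged to Cavin4, Gm19605, Kcmf1, Zfp706 and Terf2ip, from -0.99 to -0.97. In all, 85 of the 17301 genes reached 0.9 and 59 of the 17301 reached -0.9, a description of 6 libraries with no p-value. With 6 libraries and this many genes such values can arise by chance, so the named genes are not shown to share the pattern of Dbp.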

How the data were processed

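The authors deposited raw read counts per gene, 1 table per library, in the layout of STAR; cutadapt 1.9.1 and STAR 2.7.0f are named in the submitters' processing notes. Genome build and annotation are not given in the sources used here. The 55450 gene identifiers equal those of GENCODE M21 (GRCm38), which supplied symbols, positions and exon lengths. The 4 rows per table that name no gene held 57.7% to 60.2% of reads and were left out. Column 4, the strand with 94.6% to 94.8% of stranded counts, was used.

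Genes were filtered with filterByExpr, scaled by TMM and tested with edgeR 4.0.16 in R 4.3.3 (quasi-likelihood, genotype as sole factor, 6 libraries), with Benjamini-Hochberg adjustment over 21237 genes and a threshold of 0.05. Errors are SD over libraries, or SE taken as the log2 fold change over the root of F. Intervals of 95% use the t distribution with the fit's degrees of freedom. Log2 CPM uses a prior count of 2. On counts simulated for the comparison of KO with WT, with 200 genes changed, the test ran on 20955 genes and recovered 46.5% at a log2 fold of 0.5, with 12.3% of calls false, and on 20924 genes recovered 80% at a fold of 1, with 12.1% false. It recovered 4% at 0.25 (38.5% false) and 97.5% at 2 (7.58% false), so small differences in single genes were mostly not detectable.

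All 10 clock genes are always named. Of the lists of further clock, output, immediate early and glucocorticoid-responsive genes, the 3 genes with the smallest p-values are named. Marker lists of cell types and tissues are given as sums. Of the patterns like Dbp the 5 highest and 5 lowest are named. Others were named after their values were seen. The members and lists were chosen with earlier results of these data known. The letters of the ROR element were chosen with the Arntl window in view. Alternatives were the unstranded counts, DESeq2 size factors, total counts, no filter, a mean count of at least 50, DESeq2 1.42.0, limma 3.58.1 (voom), a replicate block and leaving out libraries.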

Additional observations from a re-analysis of the deposited data

How the results depend on the processing

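Without a filter on low counts, 298 genes and 2 of the 10 clock genes passed, Per1 (log2 fold change 0.26, adjusted p = 0.000916 in edgeR's test) and Per2 (0.53, adjusted p = 3.81e-14). These were also the 2 clock genes higher at an unadjusted p-value under 0.05. The cause was not tested. Over the other alternatives the adjusted p-value of Per1 was between 0.249 and 0.953 and that of Per2 between 0.321 and 0.872. DESeq2 called 25 genes, and the fit with the replicate block called 4. With 1 library left out, 2 to 5 genes and 0 clock genes passed; at an unadjusted p-value under 0.05, 0 to 2 clock genes were higher and 0 to 1 lower. The 5 genes and the 1 lower clock gene, Arntl, came without KO library 3. The number of clock genes higher at that level was 0 with a mean count of at least 50, with DESeq2 and with limma-voom, and 2 with the replicate block and without both libraries numbered 3 (an alternative chosen after seeing the data). The median log2 fold change of the clock genes lay between -0.069 and 0.13. The scalings moved the median of all genes by -0.00042 (DESeq2 size factors) and -0.010 (total counts).

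Deviations of same-numbered libraries from their genotype means correlated across all genes at 0.040, -0.031 and -0.058, so the numbers do not pair the libraries by the rule used. Across the 10 clock genes alone the values were 0.93, -0.039 and 0.80, a hint from these data and not from the design, and WT library 2 correlated best with KO library 1, at 0.91. With the replicate block the log2 fold change was 0.22 (SE 0.0751) for Per1 and 0.45 (SE 0.153) for Per2, neither past the threshold. The SE with the block was 0.0570 for Dbp, against 0.170 without it, and 0.108 for Ciart, against 0.339. For Clock it was 0.0484, against 0.0450. With total counts r of Arntl and Ciart was -0.91 (exact permutation p = 0.0528), and with the unstranded column r of Arntl and Dbp was -0.81 (p = 0.0667, same exact permutation test).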

Other observations

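Counts on the strand opposite to each clock gene were also tested on their own. Of the 10 genes, 6 had enough such counts to be tested, and 0 passed in edgeR's test after adjustment. At Nr1d1, where the exons of Thra lie on the other strand, the counts in libraries 1, 2 and 3 were 1910, 1578 and 1945 for WT, then 2125, 2070 and 2420 for KO (log2 fold change 0.22, SE 0.0765, adjusted p = 0.778 in edgeR's test). Unlike the counts of Nr1d1 itself, they were not lowest in library 3. At Per2, where antisense transcription is known in mouse, they were between 1 and 8 counts per library, too few to compare.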
